A study of Rattus norvegicus with 10 samples.

Results

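The genes described here are 10 genes of MHC class I peptide processing, namely B2m, Tap1, Tap2, Tapbp, Psmb8, Psmb9, Psmb10, Psme1, Psme2 and Erap1. They were chosen by name, and every probe set whose platform annotation gives 1 of these symbols alone was taken, which gave 15 of the 31099 probe sets of the array. All 10 genes had a probe set above the filter on low values and are 10 of the 12255 genes tested. Expression was measured on 10 Affymetrix rat arrays from 5 mammary tumors of female Sprague-Dawley rats, induced with the carcinogen DMBA, given once by mouth at 100 mg/kg, and chosen by the submitters as histological grade II. Each tumor, coded 09I1, 11D2, 12I1, 29I1 or 43D1, was sampled by biopsy before any treatment, when the rats were 12 weeks old (basal, n = 5), and again at 19 weeks (final, n = 5). Between them lay 6 weekly doses of 1 mg/kg of adriamycin (doxorubicin, an anthracycline that poisons topoisomerase), injected into a vein. The sample labels describe the final sample as the entire tumor, while the design text describes a needle sample. Drug, age, kind of sample and the run of array codes differ together between basal and final, so their parts in any difference cannot be told apart. Whether the tumors came from separate rats is not stated in the labels, so the p-values measure the spread between tumors.

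MHC class I molecules show peptides from inside the cell to CD8+ T cells. Proteasomes cut cytosolic proteins into peptides, the TAP transporter moves them into the endoplasmic reticulum, tapasin holds TAP and the empty class I molecule together, and the aminopeptidase encoded by Erap1 trims the peptides to length. Interferon gamma induces most of these genes, and it replaces the constitutive catalytic subunits of the proteasome with the inducible subunits encoded by Psmb8, Psmb9 and Psmb10. In a tumor sample, both the epithelial cells and the leukocytes make them.

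All levels are log2 values, and a difference of 1 is a factor of 2. The epithelial adhesion gene Epcam averaged 12.89 ± 0.16 (SD, n = 5) before treatment and 12.81 ± 0.44 (SD, n = 5) after it, so the labelled tissue has its defining marker on every array. Ptprc, the common leukocyte antigen, stood at 8.75 ± 0.73 (SD, n = 5) and 8.74 ± 0.95 (SD, n = 5). In such bulk samples, fewer cells of a type and less RNA per cell cannot be told apart. The array of the final 09I1 sample differed from the other 9. Its 3' beta-actin control exceeded the 5' control by 2.61, against 0.72 to 0.96 elsewhere, and its median correlation with the other arrays was 0.938, against 0.975 to 0.984. A gene's mean change without this tumor is given below wherever it differs from that over all tumors by more than 1.5 times, and the part of RNA quality in them was not tested.

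Of the members, 5 (Tap1, Tap2, Psmb8, Psmb9 and Tapbp) lie on chromosome 20, in the rat MHC. In the RefSeq gene table of the assembly GRCr8, Tap2, Psmb8, Tap1 and Psmb9 follow one another with no other gene between. Tap1 and Psmb9 are transcribed away from each other, with 456 bases between the starts that the promoter table gives. The levels of this pair had a Pearson correlation of 0.45 over the 10 arrays and of 0.96 over the 8 arrays without 09I1. Over those 8 arrays Psmb10 and Psme2, on chromosomes 19 and 15, also had 0.96, while Tap1 with Tap2 had 0.23. In 09I1 the pair went opposite ways, with a change of -0.76 for Tap1 and 0.62 for Psmb9. In 29I1, Tap1 had a change of -0.49 beside -0.39 for Psmb9, while its partner Tap2 had 0.36.

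The stretches upstream of the starts are shown because the members are known interferon targets whose levels are compared with each other below. Of the 10 genes, 9 have an entry in the RefSeq promoter table (GRCr8). In the 250 bases before each start, both strands were searched for GAAANNGAA, the core of the interferon-stimulated response element, for TTCNNNGAA of the gamma-activated site, for GGNNTTTCC of the kappa-B site and for TGACGTCA of the cyclic AMP response element. The first was found in 6 of the 9 (B2m, Psme2, Psmb10, Tap1, Tap2 and Tapbp) and in 8.12% of all 33469 promoters. The kappa-B letters were found in 3 of the 9 (B2m, Tap1 and Tapbp) and in 5.19% of all promoters. The gamma-activated letters were found in Psmb8 alone among the members and in 7.67% of all promoters, and TGACGTCA in 0 of the 9 and in 1.59%. These motifs share no letters of a site in the members, apart from copies of the first that overlap each other. A match is a run of letters and does not show that a factor binds.

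The stretches below are on the strand of the gene, end before the most upstream start in the gene table, and have the matches in capitals. Positions count back from -1, the base before the start that the promoter table gives. For B2m that start lies downstream of the most upstream one, so the B2m stretch ends at -95 and not at -1. The Tap1 stretch (GRCr8, chr20:4668544-4668793, minus strand) lies between Tap1 and Psmb9 and holds the interferon core on the opposite strand at -120 to -112 and the kappa-B letters at -54 to -46. The Tap2 stretch (chr20:4652297-4652396, minus strand) holds the interferon core at -41. The Psmb10 stretch (chr19:50743293-50743402, minus strand) holds it at -73, at -67, overlapping the one before, and at -17. The B2m stretch (chr3:129549130-129549235, plus strand) holds it at -150, with the kappa-B letters on the opposite strand at -137.
Tap1: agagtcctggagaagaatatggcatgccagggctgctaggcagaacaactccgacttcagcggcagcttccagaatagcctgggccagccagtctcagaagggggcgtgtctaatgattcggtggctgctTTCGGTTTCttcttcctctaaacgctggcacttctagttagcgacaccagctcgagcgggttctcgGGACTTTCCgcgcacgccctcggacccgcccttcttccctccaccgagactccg
Tap2: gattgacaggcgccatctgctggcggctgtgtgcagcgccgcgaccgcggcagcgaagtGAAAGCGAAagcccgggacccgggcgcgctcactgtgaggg
Psmb10: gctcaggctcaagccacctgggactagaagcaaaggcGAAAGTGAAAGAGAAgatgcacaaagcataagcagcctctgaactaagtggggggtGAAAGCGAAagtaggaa
B2m: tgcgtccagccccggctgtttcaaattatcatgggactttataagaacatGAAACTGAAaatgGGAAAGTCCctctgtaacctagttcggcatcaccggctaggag

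None of the 10 genes differed between final and basal samples past the threshold. With limma, 0 of the 10 had an adjusted p under 0.05, where the share over all 23281 probe sets tested was 0%. The paired test of the study's methods also gave 0 probe sets after adjustment, with 1081 at an unadjusted p under 0.05. At an unadjusted p under 0.05 there were again 0 of 10, against 4.02% (935) of all probe sets. In each of the 10 genes the range of the basal values overlapped that of the final values, and such overlap was not counted over all genes. The mean change was positive in 9 genes and negative in Tap1, and the median of the 10 mean changes was 0.084, beside 0.014 over all genes. No member had the same sign in all 5 tumors, which 5.83% of all genes had. A positive change in at least 4 of the 5 tumors was seen in 8 of the 10 genes and in 20.7% of all genes. The members share arrays, so they do not count as independent observations.

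In 43D1 all 10 genes were higher in the final sample, where 48.9% of all genes were, and in 12I1 also all 10 were higher, against 56.9% of all genes. In 11D2 9 of the 10 were higher, against 47.1%. The final 11D2 sample also had skeletal muscle genes at a mean of 10.22, against at most 6.26 on every other array. The part of such tissue in the member changes of 11D2 was not tested. In 29I1 7 of the 10 were lower, against 54.3%, counting B2m at -0.00. In 09I1 5 of the 10 were lower, against 41.4%. The median change of the members was 0.30 in 43D1, 0.14 in both 12I1 and 11D2, -0.21 in 29I1 and -0.05 in 09I1. Each tumor gave 1 sample per time, so these values within tumors have no replicate check.

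**Figure D1:**
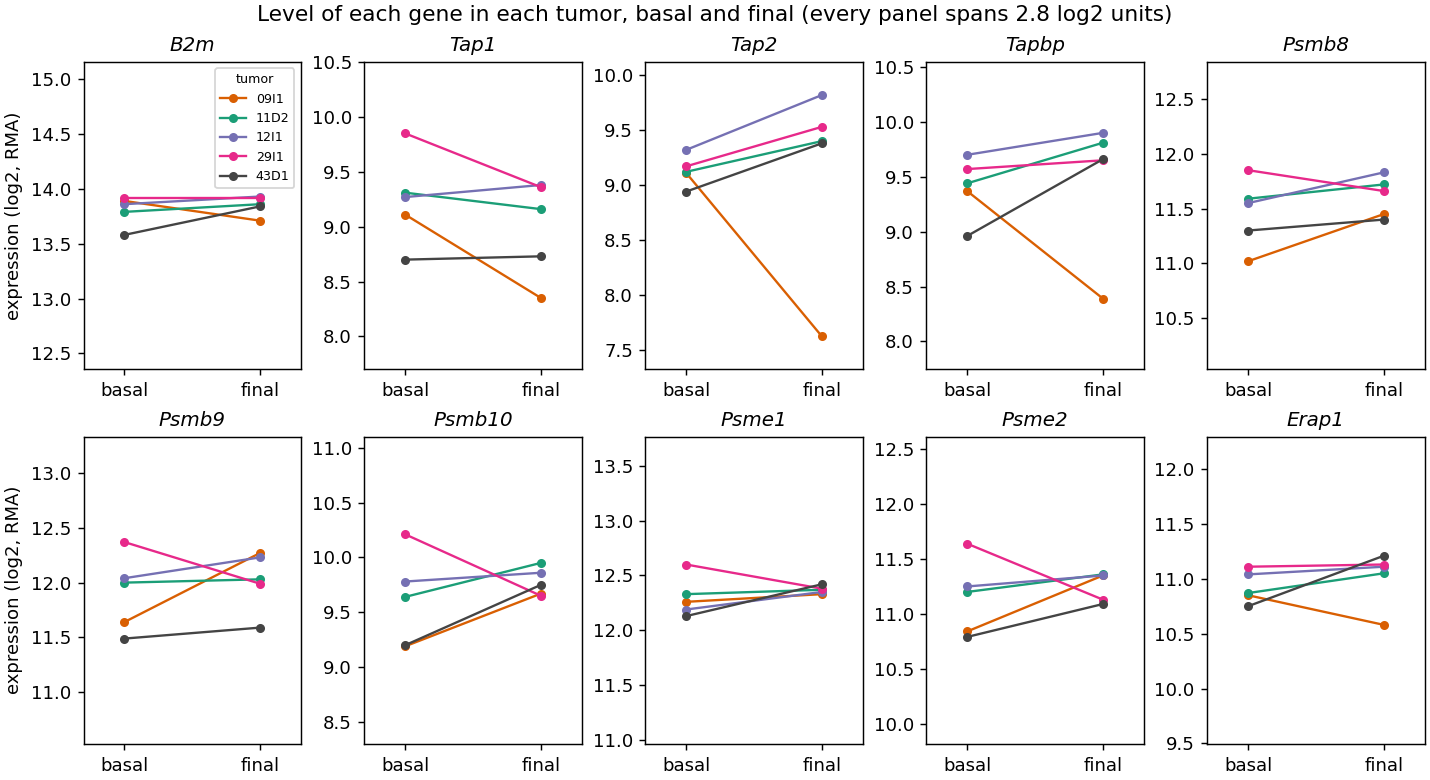
Expression (log2, RMA) of the 10 genes in the basal and the final sample of each tumor, with 1 line per tumor and every panel spanning the same number of log2 units. The final sample of 09I1 is the lowest point for Tap1, Tap2, Tapbp and Erap1, and the basal sample of 29I1 is the highest for Tap1 and the 5 proteasome genes.

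Psmb8, Psmb9 and Psmb10 encode the inducible catalytic subunits of the immunoproteasome. In the tumor order used throughout (09I1, 11D2, 12I1, 29I1, 43D1), Psmb9 stood at 11.64, 12.00, 12.04, 12.37 and 11.49 in the basal samples. The final samples had 12.27, 12.03, 12.23, 11.99 and 11.59. Basal 29I1 was the highest of the 10 values and basal 43D1 the lowest, and the groups overlapped. The mean change of Psmb9 was 0.11 ± 0.15 (SE), with a 95% interval of -0.24 to 0.47 and limma adjusted p = 0.977. Without 09I1 the mean change was -0.02. Psmb10 had the widest basal spread of the proteasome members, at 9.19, 9.64, 9.78, 10.21 and 9.20. Its final values were 9.67, 9.95, 9.86, 9.65 and 9.75, all inside the basal range. The mean change of Psmb10 was 0.17 ± 0.19 (SE), positive in 4 of 5 tumors, with limma adjusted p = 0.977, and it was 0.09 without 09I1. Psmb8 ran from 11.02 (09I1) to 11.85 (29I1) in basal and from 11.40 (43D1) to 11.83 (12I1) in final samples, with a mean change of 0.15 ± 0.12 (SE) and a 95% interval of -0.14 to 0.43. Without 09I1 the change of Psmb8 was 0.08. Leaving out 29I1 instead gave changes of 0.231 for Psmb8, 0.236 for Psmb9 and 0.354 for Psmb10, and leaving out 43D1 gave 0.074 for Psmb10.

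Psme1 and Psme2 encode the alpha and beta subunits of PA28, an interferon-induced cap that opens the proteasome. Psme1 was nearly constant in the final samples, with 12.33, 12.37, 12.35, 12.38 and 12.42. Its basal values ran from 12.13 (43D1) to 12.60 (29I1). Psme2 stood at 10.84, 11.20, 11.25, 11.64 and 10.79 in the basal and at 11.35, 11.36, 11.35, 11.13 and 11.09 in the final samples. Basal 29I1 was the highest and basal 43D1 the lowest of these. The mean changes were 0.07 ± 0.11 (SE) for Psme1 and 0.11 ± 0.16 (SE) for Psme2, each with limma adjusted p = 0.977. Without 09I1 that of Psme2 was 0.01, without 29I1 it was 0.266 and without 43D1 0.064. For Psme1 the change was 0.143 without 29I1 and 0.014 without 43D1. In both genes 29I1 was the only tumor with a lower final sample. A second Psme1 probe set, with a mean level of 4.64, had a change of -0.04 and lay far below the first.

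All 5 proteasome members were lower in the final sample of 29I1, with changes of -0.19 for Psmb8, -0.39 for Psmb9, -0.56 for Psmb10, -0.22 for Psme1 and -0.51 for Psme2, and all 5 were higher in each of the other 4 tumors. The SD over tumors was smaller in the final than in the basal group for these 5 genes and B2m. It was 0.43 in basal and 0.13 in final samples for Psmb10, and 0.18 and 0.03 for Psme1. A smaller final SD was found in 6 of the 10 members and in 39.1% of all genes with all 5 tumors, and in 9 of the 10 members and 64.1% of all genes without 09I1. The difference in spread was not tested.

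The inducible subunits take the places of constitutive ones, Psmb8 that of Psmb5 and Psmb10 that of Psmb7. Psmb5 had changes of 0.70, 0.17, 0.06, -0.20 and 0.08 over the tumors, and Psmb8 had 0.43, 0.13, 0.27, -0.19 and 0.09, with the same sign in each. The change of Psmb8 minus that of Psmb5 averaged -0.02 ± 0.18 (SD, n = 5), with a 95% interval of -0.23 to 0.20 and p = 0.75 in a two-sided exact sign-flip permutation test. The change of Psmb10 minus that of Psmb7 averaged 0.08 ± 0.26 (SD, n = 5), with a 95% interval of -0.25 to 0.41 and p = 0.5625 in the same exact test. By tumor this difference was 0.06, 0.21, 0.04, -0.31 and 0.40. With 5 tumors the smallest p this exact test can give is 0.0625. No difference between inducible and constitutive subunits passed, and the intervals reach 0.41 for Psmb10. The partner of Psmb9, Psmb6, was not analysed here.

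The 16 other genes of the catalytic core and its assembly had a median change of 0.58 in 09I1 (15 of 16 higher), -0.20 in 29I1 (14 of 16 lower) and 0.01 in 43D1, beside 0.47, -0.39 and 0.30 for the 5 proteasome members. Psmg4, an assembly chaperone, had a mean change of 0.30, and the core subunits Psmb3 and Psmb1 had mean changes of 0.27 and 0.20. Without 09I1, where their changes were 0.88, 0.90 and 0.68, these means were 0.15, 0.11 and 0.08. Psmb5 and Psmb7 had mean changes of 0.16 and 0.09, and of 0.03 and 0.01 without 09I1. Of 20 genes of other caps and regulatory particles, 19 were measured, with a median of the mean changes of 0.049, or 0.014 without 09I1. Among them Psmf1, an inhibitor of the proteasome, had a mean change of 0.20 and 0.02 without 09I1, Psmd12 had 0.15 and 0.03 without it, and Psme4, a nuclear cap, had -0.11. None of these genes passed the threshold.

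**Figure D2:**
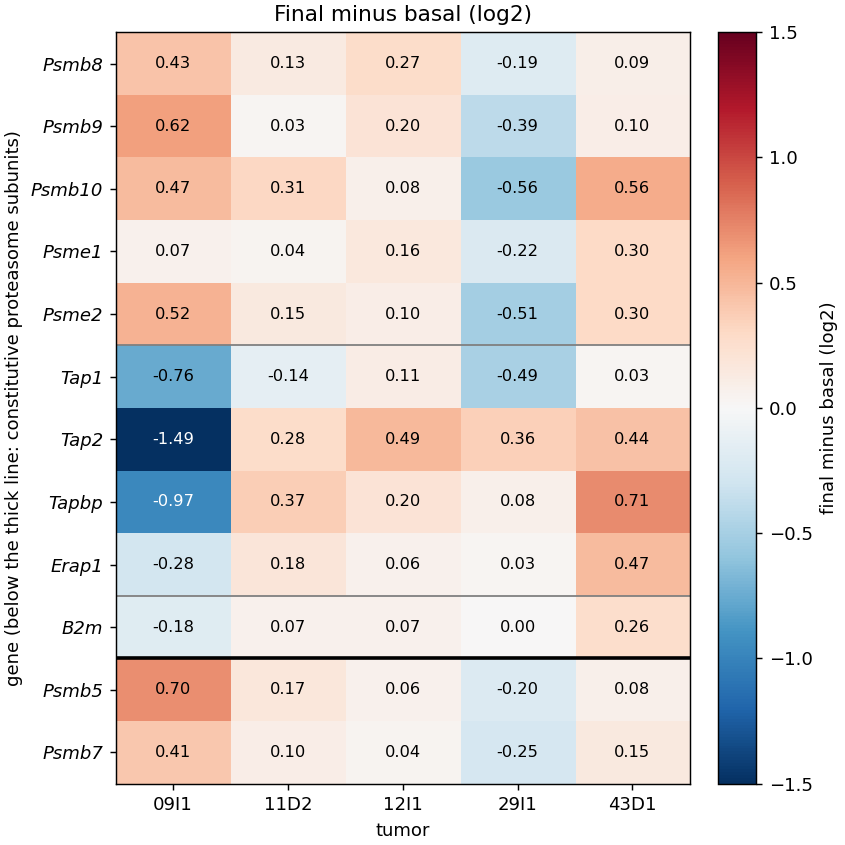
Final minus basal (log2) for each gene and tumor, with the proteasome members on top, then Tap1, Tap2, Tapbp and Erap1, then B2m, and the constitutive subunits Psmb5 and Psmb7 under the thick line. In 09I1 the proteasome rows are positive while the rows from Tap1 to B2m are negative, and in 29I1 the proteasome rows and Tap1 are negative.

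Tap1 and Tap2 encode the chains of the peptide transporter. Tap1 stood at 9.11, 9.31, 9.27, 9.85 and 8.70 in the basal samples, and at 8.35, 9.16, 9.38, 9.36 and 8.73 in the final samples. The groups overlapped, with final 09I1 the lowest and basal 29I1 the highest value. Its mean change of -0.25 ± 0.17 (SE), below 0 in 3 of the 5 tumors, had a 95% interval of -0.65 to 0.15 and limma adjusted p = 0.977. Without 09I1 it was -0.12. Tap2 was narrow in the basal samples, at 9.11, 9.12, 9.32, 9.17 and 8.94. Its final values were 7.62 in 09I1 and 9.40, 9.82, 9.53 and 9.38 in 11D2, 12I1, 29I1 and 43D1. Final 09I1 lay far below all the other values. The mean change of Tap2 was thus 0.02 ± 0.31 (SE) over 5 tumors, with limma adjusted p = 0.998, and 0.39 ± 0.09 (SE) over the other 4, positive in 4 of 4, with limma adjusted p = 0.466. A second Tap1 probe set lay near the floor of the array, with a mean of 4.51, and had a change of -0.09.

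Tapbp encodes tapasin, which bridges TAP and the class I molecule and edits the peptides bound. It stood at 9.37, 9.44, 9.70, 9.57 and 8.96 in the basal and at 8.39, 9.81, 9.90, 9.65 and 9.66 in the final samples. Like Tap2, it was higher in the final sample of 4 tumors and lower in 09I1. The mean change was 0.08 ± 0.24 (SE) with all tumors and 0.34 ± 0.13 (SE) without 09I1, with limma adjusted p-values of 0.977 and 0.597. In the fit without 09I1, Tap2 and Tapbp were the members with an unadjusted p under 0.05, 2 of 10, where 8.02% of all probe sets had one. None had an adjusted p under 0.05.

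Erap1 ran from 10.75 (43D1) to 11.11 (29I1) in the basal samples and from 10.58 (09I1) to 11.21 (43D1) in the final samples. Its change was 0.47 in 43D1, -0.28 in 09I1 and between 0.03 and 0.18 in the other 3 tumors, with a mean of 0.09 ± 0.13 (SE) and limma adjusted p = 0.977, and of 0.18 without 09I1. A second bright Erap1 probe set gave 0.63 in 43D1 and -0.66 in 09I1, with the same sign as the first in all 5 tumors. The remaining one lay under the filter on low values at a mean of 3.41. B2m encodes beta-2 microglobulin, the light chain that every class I molecule needs at the cell surface. Its brightest probe set stood at 13.89, 13.79, 13.86, 13.92 and 13.58 in the basal and 13.71, 13.86, 13.93, 13.92 and 13.84 in the final samples. The brightest probe set of each array read 14.05 to 14.48, so B2m lay near the top of the scale. The mean change was 0.04 ± 0.09 (SE), with a 95% interval of -0.18 to 0.26, and 0.10 without 09I1. The other B2m probe set, with a mean of 12.03, had -0.58 in 09I1, where the brightest had -0.18, and a mean change of 0.08, or 0.25 without 09I1. The second Erap1 probe set likewise had 0.08 and 0.27.

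The 09I1 tumor split the members by sign. The 5 proteasome members had changes of 0.07 to 0.62 there, while Tap1 had -0.76, Tap2 -1.49, Tapbp -0.97, Erap1 -0.28 and B2m -0.18. Beside them, 9 of the 11 class I heavy chain genes measured and 8 of the 9 genes of endoplasmic reticulum chaperones and translocation were lower in that tumor, with median changes of -0.46 and -0.70. The final array of 09I1 is the one with the raised beta-actin difference, and the part of that in these changes was not tested. In the other 4 tumors the median change of Tap1, Tap2, Tapbp and Erap1 was, in the same order, 0.23, 0.15, 0.05 and 0.45, beside 0.13, 0.16, -0.39 and 0.30 for the proteasome members.

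The levels of the members were compared pair by pair across the arrays, as a description without a test, since the values share arrays and come from 5 tumors. The median Pearson correlation over the 45 pairs was 0.55 with all 10 arrays and 0.70 without 09I1. The most alike pairs were Tap2 with Tapbp (0.95), Psmb10 with Psme2 (0.94) and Psmb9 with Psme2 (0.92). Without 09I1 these had 0.85, 0.96 and 0.92, and Psmb8 with Psmb9 and Tap1 with Psmb9 each had 0.96. The least alike were Tap2 with Psmb9 (-0.13), Tap2 with Psme2 (-0.02) and Tapbp with Psmb9 (0.06), and without 09I1 these were 0.41, 0.32 and 0.61. Pairs within the proteasome members had a median of 0.77, or 0.81 without 09I1. Pairs among Tap1, Tap2, Tapbp and Erap1 had a median of 0.78, but of 0.56 without 09I1. The 9 pairs with B2m had a median of 0.59, and of 0.79 (0.69 to 0.90) without 09I1, beside a range of 0.57 to 0.96 within the proteasome. Pairs between a proteasome member and Tap1, Tap2, Tapbp or Erap1 had a median of 0.395, or 0.615 without 09I1.

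**Figure D3:**
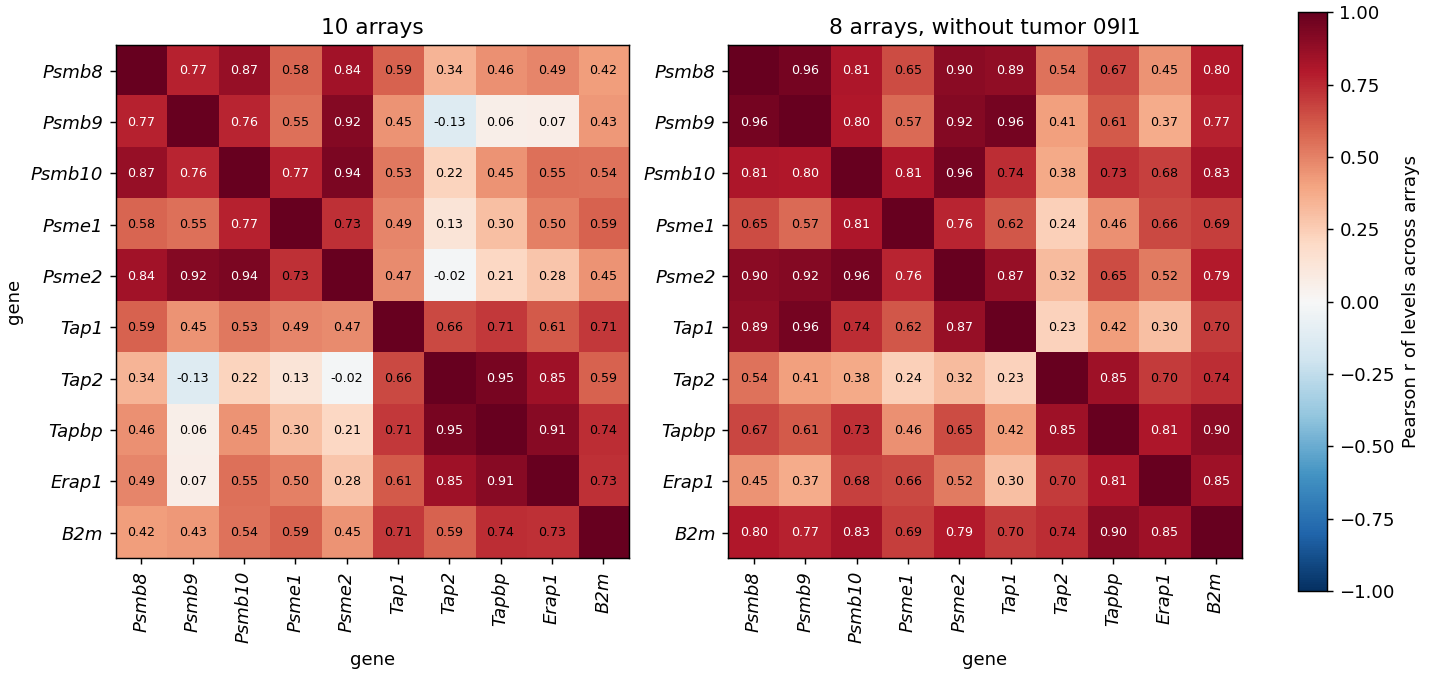
Pearson correlation of log2 levels for each pair of the 10 genes, over all 10 arrays (left) and over the 8 arrays without tumor 09I1 (right). The 5 proteasome genes correlate at a median of 0.77 at left and 0.81 at right, where pairs with B2m have a median of 0.79. Tap1 moves from the Tap2 block at left (0.66 with Tap2) to the proteasome block at right (0.96 with Psmb9).

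The genes whose pattern was most like the mean of the 10 members, by Pearson correlation over the 10 arrays, included MHC class II and leukocyte genes. They were the class II genes RT1-Db1 and RT1-Da, the phosphatase gene Ssh2, Phactr1, C11h3orf70, Cyba, which encodes a subunit of the phagocyte oxidase, Spn, a sialoglycoprotein of leukocytes, and Il2rg, the common gamma chain of cytokine receptors. Their correlations were 0.93 to 0.95, and 0.89 to 0.97 without 09I1. The list depends on that tumor, since only 1 of the 8, Ssh2, was also among the 8 most alike without it. Those were, in order, Apol3-ps1, Gimap7, Gimap4, Mnda, Ssh2, Cd3e, Sh2d3c and Cd2, with correlations of 0.98 to 0.96. Each list holds the highest correlations among all genes outside the members, on few arrays, so high values follow from the choice.

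Markers of leukocytes were high in basal 29I1, as the members were, but did not follow the members in every tumor. The mean level of the 10 members was highest in basal 29I1 (11.23) and was lowest in final 09I1 (10.57) and basal 43D1 (10.58). The 7 class II genes measured, of 9 listed, averaged 11.56 in basal 29I1, 9.78 in final 09I1 and 9.65 in basal 43D1, the highest and the lowest pair of the 10 arrays. The 19 T and NK cell genes measured, of 23 listed, averaged 5.24 to 7.67 over the basal and 6.60 to 7.19 over the final arrays, again with 43D1 lowest and 29I1 highest among the basal ones. The 9 general leukocyte genes measured, of 10 listed, averaged 8.60 to 9.88 over the basal and 8.53 to 9.55 over the final arrays, and the 19 macrophage genes, of 20 listed, 8.24 to 10.08 and 8.62 to 9.51. A high level in 29I1 was not particular to leukocytes. Among the basal arrays it also had the highest means of the fibroblast (10.77), endothelial (7.91) and adipocyte (7.43) genes. By contrast the 17 luminal epithelial genes were lowest among the basal arrays in 29I1, at 9.77 against 10.04 to 10.20, and so were the myoepithelial genes (9.92). Cd3e, a subunit of the T cell receptor complex, had changes of -1.03 in 29I1 and 1.52 in 43D1, and Cd68, of macrophages, had -1.54 and 1.23. Array values have no zero, so no marker can be called absent. The B cell list rested on 4 of 11 genes. In 12I1, where all 10 members were higher in the final sample, 0 of 19 macrophage genes (median change -0.64), 0 of 7 class II genes (-0.27) and 1 of 9 general leukocyte genes (-0.18) were. Of the 19 T and NK cell genes, 12 were higher in that tumor (median change 0.06). Among the basal arrays the general leukocyte genes were lowest in 09I1 (8.60), not in 43D1 (8.75). The part of leukocyte content in the levels of the members was not tested.

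**Figure D4:**
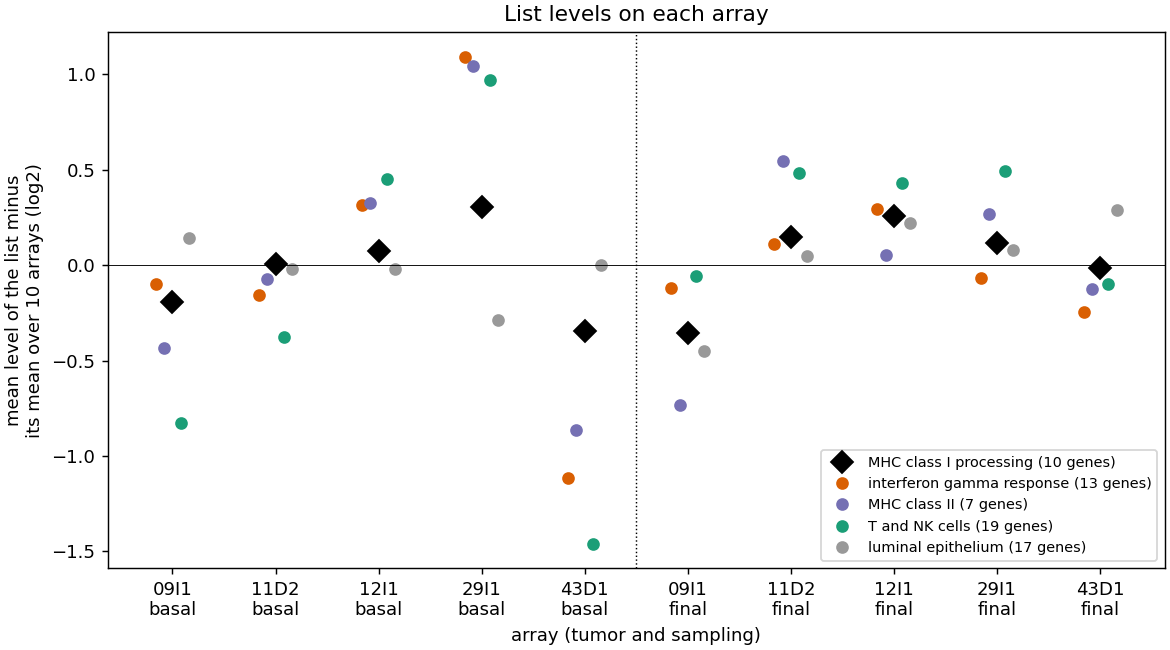
Mean log2 level of each gene list on each array, minus the list's own mean over the 10 arrays, for the 10 members (diamonds) and 4 other lists (circles). Basal 29I1 is high and basal 43D1 low for the members and for the interferon gamma, class II and T and NK lists, and the luminal list is low in basal 29I1.

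Interferon gamma response genes were also highest in basal 29I1 and lowest in basal 43D1. The 13 measured, of 18 listed, averaged 9.64 in basal 29I1 and 7.43 in basal 43D1, with 8.39 to 8.86 in the other 3 tumors, and 8.30 to 8.84 in the final samples. Their median change was -0.93 in 29I1 (12 of 13 lower) and 0.63 in 43D1 (12 of 13 higher). In 12I1, where all 10 members were higher, it was -0.03, with 8 of 13 lower. It was 0.18 in 11D2 (9 of 13 higher) and -0.08 in 09I1 (8 of 13 lower). Ubd, a ubiquitin-like modifier, had a mean change of 0.77 ± 0.47 (SE), Cxcl10, a chemokine for T cells, had -0.53 ± 0.49 (SE), and Casp1, the inflammasome protease, had 0.19 ± 0.18 (SE), or 0.04 without 09I1. Cxcl10 alone had -2.92 in 29I1. Irf1, a transcription factor that binds the interferon-stimulated response element, had changes of -0.84 in 29I1 and 0.70 in 43D1. Irf1 was also lower in 12I1 (-0.32), 11D2 (-0.15) and 09I1 (-0.03), and its mean change was -0.13 ± 0.22 (SE). Irf8, its relative in myeloid cells, had -1.52 in 29I1 and 0.21 in 43D1. Nlrc5, the transactivator of class I genes, had -1.13 in 29I1 but also -0.61 in 43D1, where all 10 members were higher, and its mean change was -0.23 ± 0.28 (SE), or -0.50 without 09I1. Ifngr1, of the interferon gamma receptor, had a mean change of 0.16 ± 0.15 (SE), or 0.25 without 09I1. Rfx5, of the complex that binds class I and class II promoters, had -0.24 ± 0.12 (SE) and was negative in 5 of 5 tumors. None of the 19 regulators measured, of 21 listed, passed the threshold, and each named here had limma adjusted p = 0.977. Ifng itself lay under the filter on low values.

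Of 23 type I interferon response genes listed, 21 were measured. With limma 0 of them passed after adjustment, and at an unadjusted p under 0.05 there were 3 higher and 1 lower, beside 4.02% of all probe sets. Bst2, which tethers virus particles to the cell, had a mean change of 0.86 ± 0.20 (SE), positive in 5 of 5 tumors, with limma adjusted p = 0.850. Oasl had 0.51 ± 0.17 (SE), positive in 5 of 5, and Rsad2, an antiviral enzyme, had -1.32 ± 0.47 (SE), positive only in 43D1.

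The heavy chains that pair with beta-2 microglobulin are a family of near-identical genes, so a probe set may read several of them and its gene name is uncertain. Of 45 listed, 11 had a probe set of their own symbol, and the median of their mean changes was -0.023, or 0.147 without 09I1. RT1-A1, RT1-A1b, RT1-A2 and RT1-Aw2 were among those without one, so the values here do not cover them. RT1-N2 had a mean change of -0.34, RT1-T24-3 one of 0.20 and RT1-S3 one of 0.18. Without 09I1 these were -0.44, 0.35 and 0.46. In 43D1 9 of the 11 were higher. Among 5 other genes of class I-like chains, Mr1, which presents vitamin metabolites, had a mean change of 0.40 ± 0.21 (SE), with 0.89 in 29I1 and 0.99 in 43D1. Cd1d1, which presents lipids, had 0.14, or 0.23 without 09I1. Procr, the endothelial protein C receptor, whose fold resembles class I although it needs no B2m, had -0.22. Of the chaperones, Calr, which stabilises the loading complex, had a mean change of -0.20 ± 0.11 (SE), or -0.13 without 09I1, and was negative in 5 of 5 tumors. Hsp90b1 had -0.39, and -0.06 without 09I1, and Sec61a1, of the translocon, had -0.18. Of 7 cytosolic peptidases, 6 had a negative mean change, and 7 of 7 were lower in 29I1. Npepps, which trims peptides in the cytosol, had -0.29 ± 0.15 (SE) and was negative in 5 of 5 tumors, Blmh had -0.17 and Prep had -0.12. Without 09I1 these were -0.17 for Npepps, -0.07 for Blmh and -0.16 for Prep. In none of these 4 lists did a gene pass the threshold, and each gene named had limma adjusted p = 0.977.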

How the data were processed

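The deposited table holds log2 values on 10 arrays. The authors made them with Robust Multichip Average (RMA), per the submitters' processing notes. The design text also names removal of control sequences and of signals close to background, which this table does not show. The log2 scale was read from the values. No genome build is given in the sources used here, so RefSeq (GRCr8) served for names, gene order and promoter sequences only.

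Probe sets for controls were dropped, as was the dimmest 25% of the rest. On the remaining 23281, final minus basal was fitted in R 4.3.3 by limma 3.58.1, blocking on tumor and using an intensity trend, and Benjamini-Hochberg adjustment was applied to all of them, with a threshold of 0.05. The fit was tested on simulated data. Where several tested probe sets carried 1 symbol, the brightest stood for the gene. Differences of changes were tested with exact sign-flip tests (scipy 1.17.1). Figures were drawn with matplotlib 3.10.9.

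The labels pair the samples by tumor code. Deviations from the group means correlated within tumors at -0.146 to 0.22, so the pairing rests on the labels. The members and the 23 other lists (328 entries, 252 measured) were chosen with earlier results of these data known. Named genes were all members, the 3 genes of each pathway list with the smallest p, fixed markers and regulators, and the 8 genes most like the members. Alternatives were no block, a random block, other filters, cyclic loess, median centring, array weights, no trend, the methods' paired test, averaging a gene's probe sets, and leaving out each tumor. Precision is limited by there being 10 arrays.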

Additional observations from a re-analysis of the deposited data

Results flagged for a closer look

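For each of the 10 genes, the 5 basal levels, the 5 final levels and the 5 changes were examined for a value far from the other 4. This gave 30 sets, where chance gives about 1.5 with such a value. The sets share arrays and a change includes the final level, so no excess can be read from a count of them. Of these sets 4 held such a value, and all 4 came from tumor 09I1. They were the final level of Tap2 (7.62), its change (-1.49), the final level of Tapbp (8.39) and the final level of Erap1 (10.58). The final array of 09I1 is the one with the raised 3' minus 5' difference of beta-actin (2.61), and the part of this in the 4 values was not tested.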

How the results depend on the processing

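Under all 15 alternatives, 0 probe sets and 0 members passed the adjusted threshold, as with no replicate block (unpaired fit), where 0 of 23281 passed and 955 had an unadjusted p under 0.05. That number was 935 in the paired fit, 1081 with the methods' paired test, 2440 with array weights, 1868 without 09I1 and 608 without 11D2. The median change of the members ran from 0.0059 to 0.125 over the fits that left out 1 tumor, beside 0.084 in the main fit. The SD between tumors of this median was 0.195. The fits reuse most of the same arrays, so a range narrower than that SD is no check on the change. Of 150 recomputed changes of single members, 8 turned their sign, all 8 with a tumor left out. The ranges over these fits were -0.0117 to 0.097 for B2m, -0.102 to 0.394 for Tap2, -0.082 to 0.337 for Tapbp, -0.016 to 0.236 for Psmb9, -0.0022 to 0.183 for Erap1, 0.075 to 0.231 for Psmb8, 0.074 to 0.354 for Psmb10, 0.014 to 0.143 for Psme1, 0.0088 to 0.266 for Psme2 and -0.343 to -0.125 for Tap1. Array weights, with all tumors kept, moved Tap2 from 0.017 to 0.299 and Tapbp from 0.076 to 0.313. The change of Psmb8 minus that of Psmb5 ran from -0.073 to 0.0497, and that of Psmb10 minus that of Psmb7 from -0.0001 to 0.179. The tumors that turned a sign were 09I1 for Psmb9 and for Psmb8 minus Psmb5, 43D1 for B2m, Tapbp, Erap1 and Psmb10 minus Psmb7, and 11D2, 12I1, 29I1 or 43D1 for Tap2. The comparison of Psmb9 with Psmb6 was not run, since Psmb6 was not analysed here.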

Other observations

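The 8 skeletal muscle genes measured, of 10 listed, had a median change of 5.07 in 11D2 and of -0.09 to 0.59 in the other 4 tumors, and their mean level was 10.22 in the final 11D2 sample and at most 6.26 on every other array. The 8 adipocyte genes measured had median changes of 2.02 in 11D2 and -1.54 in 29I1. The 10 fibroblast genes were all higher in 11D2 (0.99) and 12I1 (0.71) and all lower in 29I1 (-1.20), and the 9 endothelial genes were all lower in 29I1 (-0.73). The 9 myoepithelial genes had a median of the mean changes of -0.067, the 7 dendritic cell genes one of -0.197 and the 4 B and plasma cell genes one of -0.083. The 4 red blood cell genes measured, of 8 listed, had a median of the mean changes of -1.56, and 3 of them were lower at an unadjusted p under 0.05. In none of these lists did a gene pass the adjusted threshold with limma.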
